A study of Homo sapiens with 6 samples.

Results

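The genes described here are homeobox genes outside the core set of beta cell transcription factors, measured by bulk RNA sequencing in 6 cultures of EndoC-βH1, an insulin-secreting line of human beta cells. They were taken by name: 46 listed genes and all 39 genes of the HOXA to HOXD clusters, 85 of 26485 gene symbols in the table. All 6 cultures carried the lentiviral vector lentiCRISPRv2, which brings the Cas9 nuclease and an antibiotic resistance gene, and were grown as antibiotic-selected stable lines. In 3 libraries, labelled sgZHX3-3 with the genotype ZHX3 KO, the vector also held 1 guide RNA against the first coding exon of ZHX3. The other 3, labelled Empty with the genotype WT, held the vector without a guide. The titles give biological replicates 1 to 3 in each group but not whether these are separately made lines, so the p-values may measure spread between cultures only. The series describes a single guide, so what comes from ZHX3 cannot be told apart from what comes from that guide otherwise or from the making of the lines.

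Homeobox genes encode transcription factors that bind DNA through a helical fold, the homeodomain, and many of them fix the identity of a tissue or a position along the body axis. HOX proteins specify position, and TALE proteins such as MEIS and PBX, whose homeodomain has an extended loop, bind DNA beside HOX and other homeodomain proteins. SINE, CUT, POU, LIM and zinc finger classes carry further domains next to the homeodomain, while in beta cells the homeodomain proteins PDX1, NKX6-1 and PAX6 maintain the mature state. ZHX3, the gene named in the labels, is itself a zinc finger and homeobox repressor.

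The libraries held 45101454 to 61051884 counts each. The libraries labelled sgZHX3-3 had more ZHX3 RNA, at 167, 180 and 183 CPM (gene counts scaled to the library size after TMM correction), against 106, 110 and 101 CPM in the libraries labelled Empty. The RNA thus does not show the loss that the genotype label names, and every direction below is that of the label. All 10 beta cell markers had counts, while the 5 endothelial markers summed to at most 0.0802 CPM in any library, with CDH5 and KDR at 0. The libraries were not uniform within groups. The 15 listed stress genes summed to 1838, 1899 and 1747 CPM in the libraries labelled sgZHX3-3, against 2184, 3058 and 3345 CPM in Empty 1, 2 and 3. The 10 beta cell markers summed to 35835, 39430 and 43840 CPM in the libraries labelled sgZHX3-3, against 38897, 31213 and 30918 CPM in Empty 1, 2 and 3. Empty 1 therefore lay nearer to the libraries labelled sgZHX3-3 on both sums. CHGA made up most of the beta cell sum, at 29447 CPM in Empty 1. By gene, Empty 1 was the nearest Empty library for every listed beta cell marker except SLC30A8 and G6PC2. Values without some of the Empty libraries are given below for the genes that depend on them most. The part of these differences in the results below was not tested, and in bulk RNA fewer cells of a type and less RNA per cell cannot be told apart.

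Of the 85 genes, 45 had enough counts to be tested and 40 did not, 18 of them at 0 in all 6 libraries. Among the 45, the libraries labelled sgZHX3-3 had 4 higher and 0 lower, by edgeR's quasi-likelihood test with Benjamini-Hochberg adjustment over all 16199 tested genes and a threshold of 0.05. The 4 were MEIS2, CUX1, SIX2 and TSHZ1. They made up 8.89% of the tested members, while 12.1% of all tested genes were called. By direction, 7.11% of all tested genes (1151) were called higher and 4.98% (807) lower, or 904 higher and 1272 lower with scaling by library totals only, so the share of called homeobox genes lay near the background. No member had a negative fold change at an unadjusted p below 0.05, and DESeq2 called 0 lower as well. The median log2 fold change of the 45 was 0.07, beside −0.0020 for all tested genes. In 11 members every library labelled sgZHX3-3 lay above every library labelled Empty and in 2 every one lay below, which is 24.4% and 4.44% of those tested. Across all tested genes these shares were 16.0% and 16.0%, and whether the members' shares differ from them was not tested. The filter asked for enough counts in at least 3 libraries, so a gene with counts in 1 group only could pass it, and these shares describe the tested members, not all 85.

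**Figure D1:**
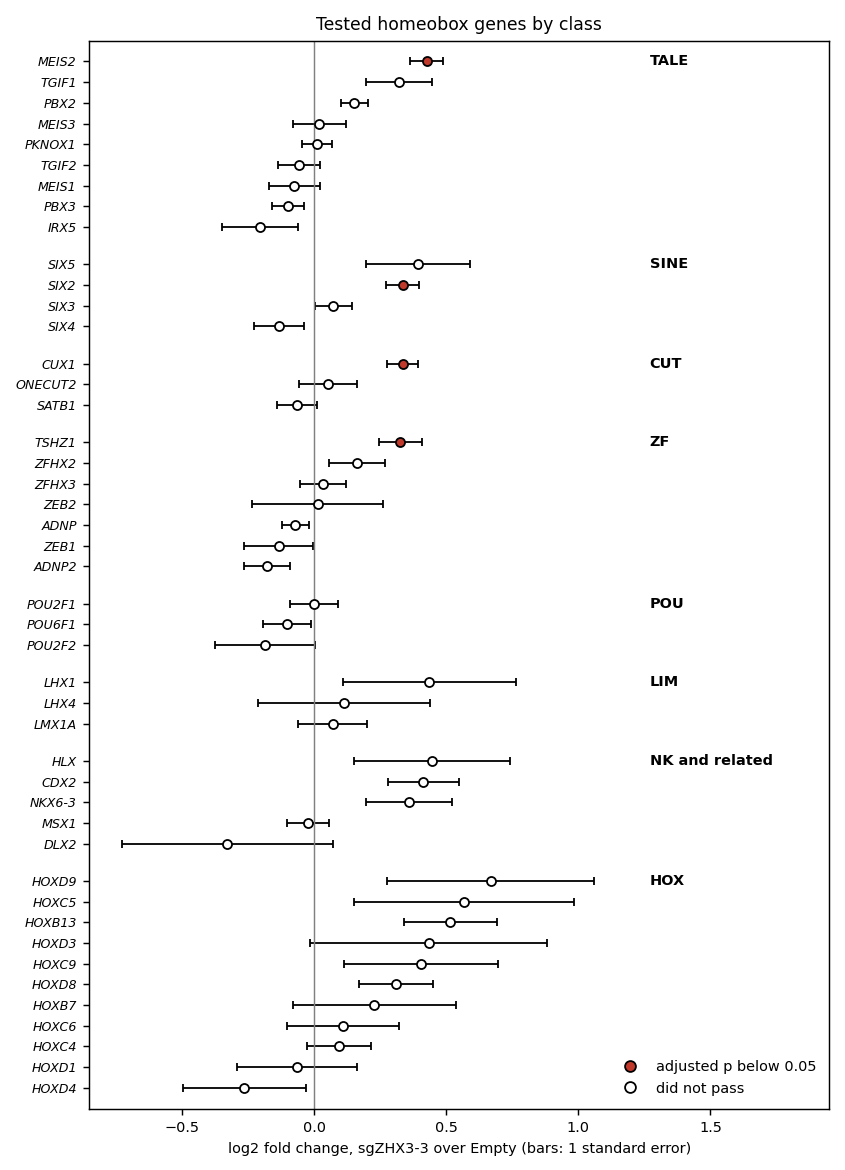
Log2 fold change of the 45 tested homeobox genes (x axis, libraries labelled sgZHX3-3 over libraries labelled Empty, n = 3 each), grouped by homeobox class, with bars of 1 standard error from edgeR. The 4 filled points, MEIS2, SIX2, CUX1 and TSHZ1, passed the adjusted p threshold, and the widest bars belong to HOX, LIM and NK-type genes with few counts.

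MEIS2, the TALE cofactor that partners PBX and HOX proteins, had the smallest adjusted p of the 85. It stood at 315, 314 and 310 CPM in the libraries labelled sgZHX3-3, against 258, 224 and 217 CPM in Empty 1, 2 and 3. The groups did not overlap, and Empty 1 was the closest of the Empty libraries to the other group. MEIS2 rose by 0.43 on the log2 scale (standard error 0.0634, edgeR adjusted p = 0.00123), with means of 313 ± 2.56 CPM in libraries labelled sgZHX3-3 and 233 ± 22.1 CPM in libraries labelled Empty (SD, n = 3 each). The rise passed with any 1 library left out, with log2 fold changes between 0.38 and 0.51, and with Empty 2 and 3 both left out it was 0.28 (edgeR adjusted p = 0.0763). MEIS2 (ENSG00000134138.19) occupies bases 36889204 to 37101299 of chromosome 15, minus strand (GRCh38, GENCODE release 29). The RefSeq table used here holds 2 start sites for it, and the 250 bases before each are shown because MEIS2 had the smallest p and ZHX proteins are known to bind NF-Y, the factor that binds the CCAAT box. They run 5′ to 3′ in lower case with any CCAAT, or ATTGG for the opposite strand, in capitals. Outer and inner name the 2 RefSeq starts. Both windows lie inside the GENCODE span given above, which begins at base 37101299 on this strand.
MEIS2 outer start, chr15:37099107-37099356, minus strand, GRCh38.p14: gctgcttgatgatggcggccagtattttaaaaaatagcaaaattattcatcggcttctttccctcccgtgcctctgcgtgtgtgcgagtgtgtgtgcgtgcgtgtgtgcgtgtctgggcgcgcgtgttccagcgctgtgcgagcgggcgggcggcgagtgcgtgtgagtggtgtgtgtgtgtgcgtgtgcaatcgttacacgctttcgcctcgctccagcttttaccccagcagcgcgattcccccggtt
MEIS2 inner start, chr15:37098697-37098946, minus strand, GRCh38.p14: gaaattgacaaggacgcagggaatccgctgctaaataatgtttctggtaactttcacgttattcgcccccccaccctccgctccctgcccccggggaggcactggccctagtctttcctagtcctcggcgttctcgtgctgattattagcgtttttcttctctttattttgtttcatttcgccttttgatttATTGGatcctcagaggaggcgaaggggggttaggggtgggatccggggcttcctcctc
The window before the outer start held 0 CCAAT matches and the one before the inner start held 1, 58 bases before that start. The homeodomain core TAAT, counted on both strands as TAAT or ATTA, matched 1 time before the outer start and 3 times before the inner start.

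No other tested TALE gene passed. PBX2, a partner of MEIS and HOX proteins, stood at 108 CPM in each of the 3 libraries labelled sgZHX3-3, against 100, 94.5 and 96.9 CPM in the libraries labelled Empty. These groups did not overlap either, but the difference was small at 0.15 and did not pass (standard error 0.0513, edgeR adjusted p = 0.0724). It passed without Empty 1 (0.18, adjusted p = 0.0251) and was 0.11 without Empty 2 and 3 (0.535). PBX3, its paralogue, went the other way, with 93.8, 92.9 and 95.0 CPM in libraries labelled sgZHX3-3 and 109, 96.0 and 96.6 CPM in libraries labelled Empty. The groups were again separate, with PBX3 at −0.10 (edgeR adjusted p = 0.309). TGIF1, which represses genes of the TGF-beta pathway, had 4.03, 4.17 and 4.02 CPM in libraries labelled sgZHX3-3, against 3.04, 3.14 and 3.60 CPM in libraries labelled Empty. That is a separation of the groups at 0.32 (standard error 0.125, edgeR adjusted p = 0.113). PKNOX1, also known as PREP1, had overlapping groups, at 48.3, 47.3 and 46.2 CPM in libraries labelled sgZHX3-3 and 45.8, 47.9 and 47.0 CPM in libraries labelled Empty. Its value was 0.01 (edgeR adjusted p = 0.925).

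Within the MEIS family the rise concerned the abundant member. By level per length, that is CPM per kb of merged exons, MEIS2 averaged 25.3 over all libraries, against 2.99 for MEIS3 and 0.708 for MEIS1. MEIS1 had 7.54, 7.02 and 8.07 CPM in libraries labelled sgZHX3-3, against 7.99, 8.28 and 7.56 CPM in libraries labelled Empty. MEIS3 had 13.6, 14.9 and 17.8 CPM in libraries labelled sgZHX3-3, against 16.4, 14.6 and 14.7 CPM in libraries labelled Empty. Both sets of values overlap, and whether MEIS1 and MEIS3 differ from MEIS2 in their response was not tested. IRX5, an Iroquois gene, was at 3.78, 4.15 and 4.70 CPM in libraries labelled sgZHX3-3 and at 5.75, 4.06 and 4.85 CPM in libraries labelled Empty (log2 fold change −0.20, edgeR adjusted p = 0.387). IRX3, PBX4 and PKNOX2 had at most 13 counts in any library and were not tested.

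SIX2, a homeobox factor known in nephron progenitors and in mature human beta cells, was the only one of the 4 tested SINE-class genes to pass. It stood at 34.3, 37.1 and 34.5 CPM in the libraries labelled sgZHX3-3, against 28.0, 27.7 and 28.2 CPM in the libraries labelled Empty. The Empty values lay within 1 CPM of each other, Empty 1 included, unlike the stress gene sums. The part of the split in those sums in the SIX2 value was not tested. SIX2 rose by 0.34 (standard error 0.0627, edgeR adjusted p = 0.00487). With any 1 library left out it lay between 0.30 and 0.36 and passed, and with Empty 2 and 3 both left out it was again 0.34 but did not pass (edgeR adjusted p = 0.132). The gene occupies bases 45005161 to 45009430 of chromosome 2, minus strand, and the 250 bases before its RefSeq start are shown in the same way.
SIX2, chr2:45009453-45009702, minus strand, GRCh38.p14: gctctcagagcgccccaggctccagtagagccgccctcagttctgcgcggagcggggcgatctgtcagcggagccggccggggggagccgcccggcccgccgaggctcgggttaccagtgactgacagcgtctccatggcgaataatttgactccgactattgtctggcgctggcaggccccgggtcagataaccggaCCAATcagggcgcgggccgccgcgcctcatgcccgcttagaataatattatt
This window held 1 CCAAT, 52 bases before the start, and 3 matches to TAAT or ATTA. Both windows of CUX1, also called higher and not shown, held 0 matches to CCAAT and 0 to TAAT. The RefSeq table had no window for TSHZ1. Either CCAAT or ATTGG occurs in 32.0% of all 35116 such windows, and in 19 of 60 windows (31.7%) belonging to the 33 tested members that have one. Among the 16796 windows of tested genes CCAAT or ATTGG occurs in 32.4%. TAAT or ATTA occurs in 47.4% of all windows, in 35.4% of those of tested genes and in 31 of those 60 (51.7%), and the difference was not tested. The matches are letters in a window and say nothing about binding.

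SIX3, the neighbour of SIX2 on chromosome 2 and a factor of the developing eye and forebrain, had 26.4, 26.4 and 26.8 CPM in libraries labelled sgZHX3-3. Libraries labelled Empty had 27.3, 23.8 and 24.7 CPM, so the groups overlapped (log2 fold change 0.07, standard error 0.0699, edgeR adjusted p = 0.541). By level per length SIX2, at 12.6 to 16.8 CPM per kb over the libraries, lay above SIX3, at 9.44 to 10.8 CPM per kb. SIX4 was at 14.3, 14.02 and 13.03 CPM in libraries labelled sgZHX3-3, against 13.1, 15.6 and 16.5 CPM in libraries labelled Empty (−0.13, edgeR adjusted p = 0.386). SIX5 was at 3.31, 3.49 and 4.23 CPM in libraries labelled sgZHX3-3, against 3.72, 1.99 and 2.79 CPM in libraries labelled Empty (0.39, edgeR adjusted p = 0.212). SIX4 and SIX5 changed sign with Empty 2 and 3 both left out, at 0.07 and −0.0081. A gene on the opposite strand covers 56.8% of the exon bases of SIX5, and without the strand setting of the counting the reads of both cannot be told apart.

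CUX1, a CUT-class repressor, stood at 153, 156 and 146 CPM in the libraries labelled sgZHX3-3, against 111, 126 and 122 CPM in the libraries labelled Empty. The groups did not overlap, and here Empty 1 was the lowest library and not the closest. CUX1 rose by 0.34 (standard error 0.0593, edgeR adjusted p = 0.00358). It passed with any 1 library left out, between 0.29 and 0.38, and also with Empty 2 and 3 both left out, at 0.44 (edgeR adjusted p = 0.0210). CUX1 spans 468 kb of chromosome 7, from 101815904 to 102283958 on the plus strand. Once the trend of fold change with gene span had been removed, CUX1 was at 0.16 (edgeR adjusted p = 0.103) and no longer passed. The locus also encodes CASP, a Golgi protein without a homeodomain, and counts per gene do not tell the products apart.

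The other CUT genes that could be tested did not pass. ONECUT2, a relative of the liver and pancreas factor ONECUT1, had 188, 190 and 174 CPM in libraries labelled sgZHX3-3 and 143, 204 and 185 CPM in Empty 1, 2 and 3. Its Empty values spanned those of the other group, so the log2 fold change was 0.05 (edgeR adjusted p = 0.790). With Empty 2 and 3 both left out ONECUT2 was at 0.37 and passed (edgeR adjusted p = 0.0493), and without Empty 1 it was at −0.08. SATB1, an organiser of chromatin loops, had 23.0, 22.1 and 19.97 CPM in libraries labelled sgZHX3-3, against 23.9, 22.4 and 21.6 CPM in libraries labelled Empty. ONECUT1 and CUX2 had at most 5 counts in any library, and ONECUT3 had 0 in all 6.

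TSHZ1, a zinc finger homeobox gene that in mouse acts downstream of Pdx1 in beta cells, was the most abundant of the 4 called genes. It had 386, 386 and 444 CPM in the libraries labelled sgZHX3-3, against 366, 309 and 294 CPM in Empty 1, 2 and 3. The gene occupies bases 75210755 to 75289950 of chromosome 18 on the plus strand. The groups were separate, though Empty 1 came close to the lower libraries of the other group. TSHZ1 was higher by 0.33 (standard error 0.0816, edgeR adjusted p = 0.0232). That call was lost without sgZHX3-3 library 2 (0.36, adjusted p = 0.0522), sgZHX3-3 library 3 (0.26, 0.0929), Empty 2 (0.30, 0.0991) or Empty 3 (0.27, 0.112). With Empty 2 and 3 both left out TSHZ1 was at 0.15 (edgeR adjusted p = 0.504).

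**Figure D2:**
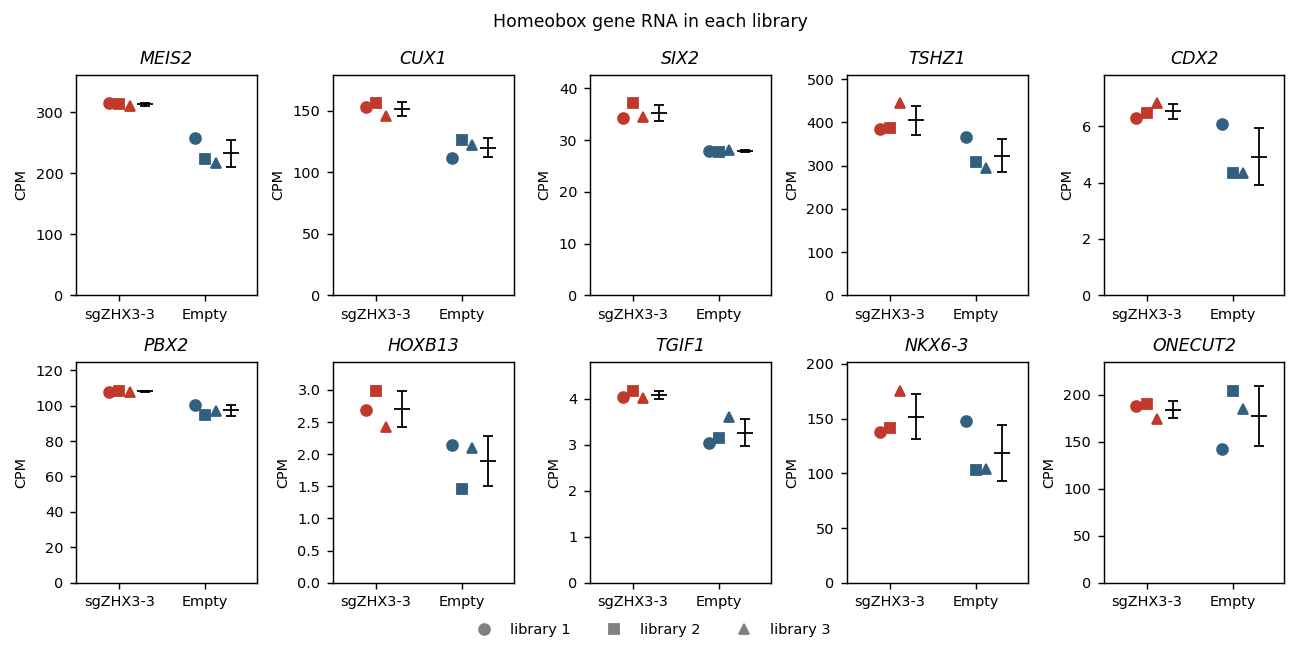
CPM (y axis, from 0) of 10 homeobox genes in each library, with libraries labelled sgZHX3-3 left and libraries labelled Empty right; symbols mark library 1, 2 and 3 and the bar beside them is the mean ± SD (n = 3). MEIS2, CUX1, SIX2 and TSHZ1 show separate groups, while for CDX2, NKX6-3 and TSHZ1 Empty 1 lies near or among the libraries labelled sgZHX3-3.

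The remaining zinc finger homeobox genes showed no call. ADNP, which sits in a chromatin complex with the remodeller CHD4, was abundant, with 255, 260 and 248 CPM in libraries labelled sgZHX3-3 and 256, 273 and 273 CPM in libraries labelled Empty (−0.07, edgeR adjusted p = 0.392). ADNP2 had 30.1, 31.7 and 27.5 CPM in libraries labelled sgZHX3-3, against 29.2, 35.5 and 36.3 CPM in Empty 1, 2 and 3. Its value of −0.18 did not pass (edgeR adjusted p = 0.202), passed without Empty 1 (−0.27, 0.0189) and was 0.03 with Empty 2 and 3 both left out. ZFHX3, a very large factor known for circadian timing in the mouse brain, had 60.0, 64.4 and 61.2 CPM in libraries labelled sgZHX3-3, against 50.9, 66.9 and 63.4 CPM in libraries labelled Empty. ZFHX2 had 14.7, 16.1 and 20.2 CPM in libraries labelled sgZHX3-3 and 14.8, 15.2 and 15.7 CPM in libraries labelled Empty (0.16, edgeR adjusted p = 0.342). The repressors of epithelial genes ZEB1 and ZEB2 were low, at 4.03 to 5.09 and 0.597 to 0.962 CPM in libraries labelled sgZHX3-3 and at 4.45 to 5.59 and 0.727 to 0.835 CPM in libraries labelled Empty. Neither passed, and ZFHX4 had at most 3 counts in any library.

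Among POU and LIM genes none passed. POU2F1, the broadly expressed octamer-binding factor, had 50.1, 46.4 and 44.96 CPM in libraries labelled sgZHX3-3, against 39.2, 50.3 and 51.7 CPM in libraries labelled Empty. POU6F1 had 8.48, 8.86 and 8.91 CPM in libraries labelled sgZHX3-3, against 9.02, 10.2 and 9.002 CPM in libraries labelled Empty, a separation of the groups by a narrow margin (−0.10, edgeR adjusted p = 0.496). POU2F2 stayed at or below 1.77 CPM, and POU3F4 had no count. The LIM gene LMX1A, known for midbrain dopamine neurons, had 5.68, 4.83 and 4.41 CPM in libraries labelled sgZHX3-3, against 4.81, 5.14 and 4.195 CPM in libraries labelled Empty. LHX1 and LHX4 were below 0.43 CPM in every library. LHX1 had 0.380, 0.361 and 0.382 CPM in libraries labelled sgZHX3-3, against 0.192, 0.321 and 0.305 CPM in libraries labelled Empty, which does not overlap but rests on 9 to 23 counts per library (0.44, standard error 0.328, edgeR adjusted p = 0.418). LMX1B had at most 3 counts.

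NKX6-3, a relative of NKX6-1 known from the stomach, had the highest level per length of all 85 genes. It had 138, 142 and 176 CPM in the libraries labelled sgZHX3-3, against 148, 103 and 104 CPM in Empty 1, 2 and 3. The groups overlapped through Empty 1, and the value of 0.36 did not pass (standard error 0.163, edgeR adjusted p = 0.210). Without Empty 1 it was 0.55 and passed (edgeR adjusted p = 0.00198), and with Empty 2 and 3 both left out it was 0.04 (0.917), so the value depends on which Empty libraries are used. CDX2, the master factor of intestinal epithelium, had 6.29, 6.46 and 6.80 CPM in libraries labelled sgZHX3-3, against 6.07, 4.33 and 4.34 CPM in Empty 1, 2 and 3. Here the groups were just separate, at 0.41 (standard error 0.135, edgeR adjusted p = 0.0631). CDX2 passed with DESeq2 (adjusted p = 0.0352), without an expression filter (0.0429) and without Empty 1 (0.59, 0.00298), and was at 0.11 (0.793) with Empty 2 and 3 both left out.

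MSX1, a target and mediator of BMP signalling in many embryonic tissues, had overlapping groups, at 15.8, 16.96 and 18.02 CPM in libraries labelled sgZHX3-3 and 18.5, 16.4 and 16.8 CPM in libraries labelled Empty (−0.02, edgeR adjusted p = 0.892). HLX and DLX2 stayed below 1 CPM. HLX had 0.537, 0.421 and 0.763 CPM in libraries labelled sgZHX3-3, against 0.428, 0.406 and 0.448 CPM in libraries labelled Empty (0.45, edgeR adjusted p = 0.356). NKX6-2 had 4, 4 and 5 counts in libraries labelled sgZHX3-3 and 1, 0 and 1 counts in libraries labelled Empty, too few to test, and DLX1 and MSX2 had at most 3 in any library.

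**Figure D3:**
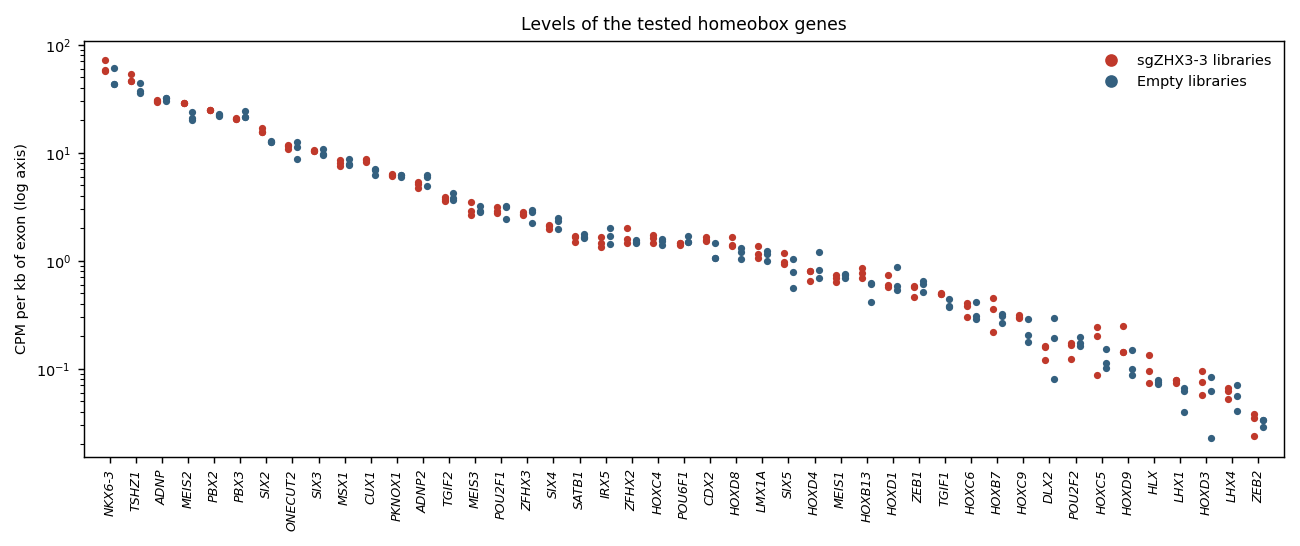
CPM per kb of merged exons (log axis) of the 45 tested homeobox genes in order of their mean, with 3 libraries labelled sgZHX3-3 and 3 labelled Empty as points. NKX6-3, TSHZ1, ADNP, MEIS2, PBX2 and PBX3 lead, above 20 CPM per kb on average, and every HOX gene lies below 2 CPM per kb.

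By level per length the members fell into a wide range, from 56.1 CPM per kb for NKX6-3 to 0.0322 for ZEB2 among those tested, as means of all 6 libraries. NKX6-3 ran from 42.9 to 72.8 CPM per kb over the libraries and overlapped TSHZ1, which ran from 35.5 to 53.6. ADNP, at 29.5 to 32.4, lay below both and above MEIS2, at 20.1 to 29.1. MEIS2, PBX2 and PBX3 overlapped their neighbours in this order, so their ranks are not resolved. SIX2, ONECUT2 and SIX3 followed at 14.3, 11.1 and 10.3 CPM per kb, then MSX1 at 8.06, CUX1 at 7.63 and PKNOX1 at 6.18. The lengths are those of all annotated exons merged, which understates the level of a gene with many alternative exons.

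Most HOX genes had few or no counts. Of 39, 16 had no count in any library, 12 more had too few to test, and 11 were tested: HOXB7 and HOXB13, HOXC4, HOXC5, HOXC6 and HOXC9, and HOXD1, HOXD3, HOXD4, HOXD8 and HOXD9. A count of 0 allows a level of up to 0.0491 to 0.0665 CPM in a single library, taking 3 counts as the limit, which covers counting error only. The 11 HOXA genes together had 3 counts in all 6 libraries. All HOX genes together had 722, 881 and 1021 counts in libraries labelled sgZHX3-3, against 700, 839 and 747 counts in libraries labelled Empty. Scaled to library size these sums were 16.2, 17.7 and 16.9 CPM in libraries labelled sgZHX3-3, against 15.0, 14.2 and 15.2 CPM in libraries labelled Empty, without overlap; the sum was not tested. Of the 11 tested HOX genes 9 had a log2 fold change above 0, with a median of 0.31. In 3 (27.3%) every library labelled sgZHX3-3 lay above every one labelled Empty. Among all 16199 tested genes 8023 had a value above 0, and in 16.0% every library labelled sgZHX3-3 lay above. Whether the HOX genes differ from this was not tested. None of the 11 tested passed with edgeR or DESeq2. With edgeR 2 of them had an unadjusted p below 0.05, as did 4560 of all tested genes. No change of these genes was thus detectable at this depth with all 6 libraries.

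The tested HOX genes lay in the HOXB, HOXC and HOXD clusters. In HOXD they ended at HOXD9, and HOXD10 to HOXD13 had at most 1 count in any library. In HOXB the isolated end gene HOXB13, known from prostate and tail development, led and HOXB1 to HOXB6 had at most 2 counts in any library. HOXB13 had 2.68, 2.99 and 2.42 CPM in libraries labelled sgZHX3-3, against 2.14, 1.45 and 2.10 CPM in libraries labelled Empty. All libraries labelled sgZHX3-3 thus lay above all labelled Empty, at 0.52 (standard error 0.177, edgeR adjusted p = 0.0760). HOXB13 passed without Empty 1 (0.61, adjusted p = 0.0386) and did not with Empty 2 and 3 both left out (0.33, 0.527).

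HOXC4 and HOXD8 were the HOX genes above 3 CPM on average. HOXC4 had 3.98, 4.39 and 4.75 CPM in libraries labelled sgZHX3-3, against 4.19, 4.33 and 3.79 CPM in libraries labelled Empty, with overlap. HOXD8 had 3.62, 4.33 and 3.67 CPM in libraries labelled sgZHX3-3, against 3.48, 3.18 and 2.71 CPM in libraries labelled Empty. The HOXD8 groups did not overlap, at 0.31 (standard error 0.140, edgeR adjusted p = 0.166), and the value was 0.15 with Empty 2 and 3 both left out (0.761). HOXC9 also showed separate groups, with 0.492, 0.501 and 0.531 CPM in libraries labelled sgZHX3-3 and 0.299, 0.490 and 0.346 CPM in libraries labelled Empty (0.41, edgeR adjusted p = 0.399). HOXD4 leaned the other way, with 1.19, 0.942 and 1.18 CPM in libraries labelled sgZHX3-3 and 1.00, 1.20 and 1.77 CPM in libraries labelled Empty (−0.26, edgeR adjusted p = 0.502, and 0.14 with Empty 2 and 3 both left out). HOXC5 (0.57, edgeR adjusted p = 0.406) and HOXD9 (0.67, edgeR adjusted p = 0.292) had the largest fold changes of the HOX genes on few reads, at 7 to 23 counts per library. HOXC4 shares 17.8% of its exon bases with HOXC6, and another gene on the same strand covers 80.5% of those of HOXD4, so how reads were divided there is uncertain. HOX genes are commonly active in mesenchyme. The 10 mesenchymal markers summed to 6.62, 7.36 and 8.75 CPM in libraries labelled sgZHX3-3, with POSTN at 0. In libraries labelled Empty they summed to 6.90, 6.64 and 6.17 CPM. COL1A1 made up most of these sums, at 5.12, 6.30 and 7.85 CPM in libraries labelled sgZHX3-3. Libraries labelled Empty had 6.11, 5.66 and 5.25 CPM of COL1A1. The part of the mesenchymal markers in the HOX values was not tested.

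**Figure D4:**
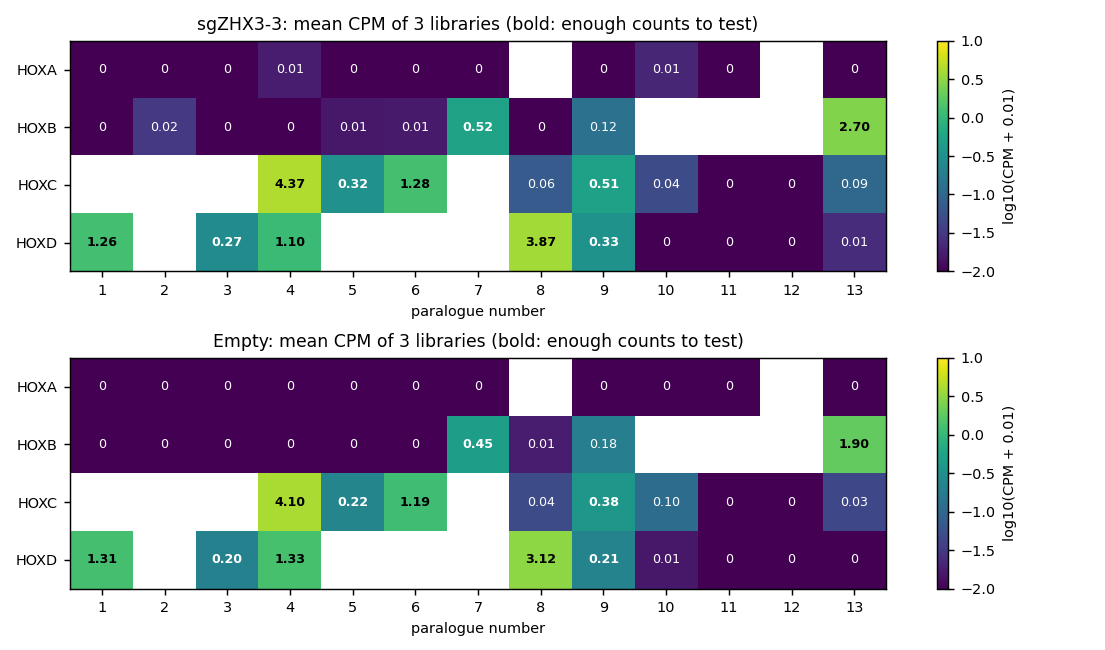
Mean CPM of each HOX gene in the 3 libraries labelled sgZHX3-3 (top) and the 3 labelled Empty (bottom), by cluster (rows) and paralogue number (columns); colour is log10(CPM + 0.01), white fields have no gene in the table, and bold values had enough counts to test. HOXC4, HOXD8 and HOXB13 have the highest means in both groups, and HOXA is at or near 0.

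Homeobox genes outside the 85 members were listed too. Of 140, 58 were tested, of which the libraries labelled sgZHX3-3 had 13 higher and 3 lower. That is 27.6% called, beside 12.1% of all tested genes. Neither the difference from all genes nor that from the members was tested. This list holds ZHX3 and the core beta factors. SIX6, a close relative of SIX3, had 226, 241 and 242 CPM in libraries labelled sgZHX3-3, against 197, 158 and 164 CPM in libraries labelled Empty. The SIX6 groups were separate, and SIX6 rose by 0.45 (standard error 0.0745, edgeR adjusted p = 0.00219). The intestinal factor ISX and the ceramide synthase CERS6, which carries a homeodomain-like stretch, rose by 0.29 (edgeR adjusted p = 0.00511) and 0.25 (0.00637). NKX6-1 rose by 0.41 (edgeR adjusted p = 0.00390), and its call, like those of SIX6, ISX and CERS6, was absent in the fit without Empty 2 and 3, where adjusted p ran from 0.125 to 0.194. For CERS6 the adjusted p was also 0.0575 when sgZHX3-3 library 2 was left out and 0.112 when the trend with gene span was removed.

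The lower genes of that list were IRX1, IRX2 and LHX2. IRX1, an Iroquois gene, had 5, 5 and 12 counts in libraries labelled sgZHX3-3, against 49, 41 and 40 counts in libraries labelled Empty. Those counts correspond to 0.112, 0.100 and 0.199 CPM in libraries labelled sgZHX3-3 and 1.05, 0.693 and 0.815 CPM in libraries labelled Empty. IRX1 fell by 2.56 on the log2 scale (standard error 0.350, edgeR adjusted p = 0.000707), and it still passed without Empty 2 and 3 (−2.87, adjusted p = 0.0182). Its neighbour IRX2, an alpha cell marker, fell by 0.34 (edgeR adjusted p = 0.00728), and the member IRX5 at −0.20 did not pass. The LIM gene LHX2 was at −0.60 (edgeR adjusted p = 0.00957). LHX2 lost its call without sgZHX3-3 library 2 (adjusted p = 0.0606) or Empty 3 (0.0652), and with Empty 2 and 3 both left out neither LHX2 (0.238) nor IRX2 (0.134) passed.

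Several partners of homeodomain proteins were higher in the libraries labelled sgZHX3-3. Of 30 tested partner and cofactor genes 10 were higher and 1, GMNN, was lower, or 36.7% called, beside 12.1% of all tested genes; the difference was not tested. LMO1, which competes for the LIM cofactor LDB1, had 13.7, 14.8 and 14.3 CPM in libraries labelled sgZHX3-3, against 11.2, 8.11 and 8.37 CPM in libraries labelled Empty. LMO1 rose by 0.63 (standard error 0.113, edgeR adjusted p = 0.00379) and, over 14 other settings and library subsets, lost its call only with Empty 2 and 3 both left out (0.35, 0.181). The Groucho corepressors TLE4 and TLE2 were at 0.28 (edgeR adjusted p = 0.0128) and 0.33 (0.0151). TLE4 passed in 11 of the 14 settings and TLE2 in 8, and without Empty 2 and 3 neither did (0.197 and 0.393). Without sgZHX3-3 library 2 the list had 2 higher genes, without Empty 3 it had 2, without Empty 2 it had 3 and without sgZHX3-3 library 3 it had 6. With Empty 2 and 3 both left out 1 gene of the list was higher.

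Of 29 tested Polycomb and Trithorax genes, which hold HOX clusters off or on, 2 were higher and 2 lower, or 13.8% called, close to the background of 12.1%. JARID2 (0.24, edgeR adjusted p = 0.0200) and DOT1L (0.22, 0.0298) were higher, and PSIP1 (−0.21, 0.0281) and PHF1 (−0.18, 0.0448) lower. Each lost its call in at least 6 of 14 other settings and library subsets, among them the fit without Empty 2 and 3, where adjusted p ran from 0.202 to 0.401.

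**Figure D5:**
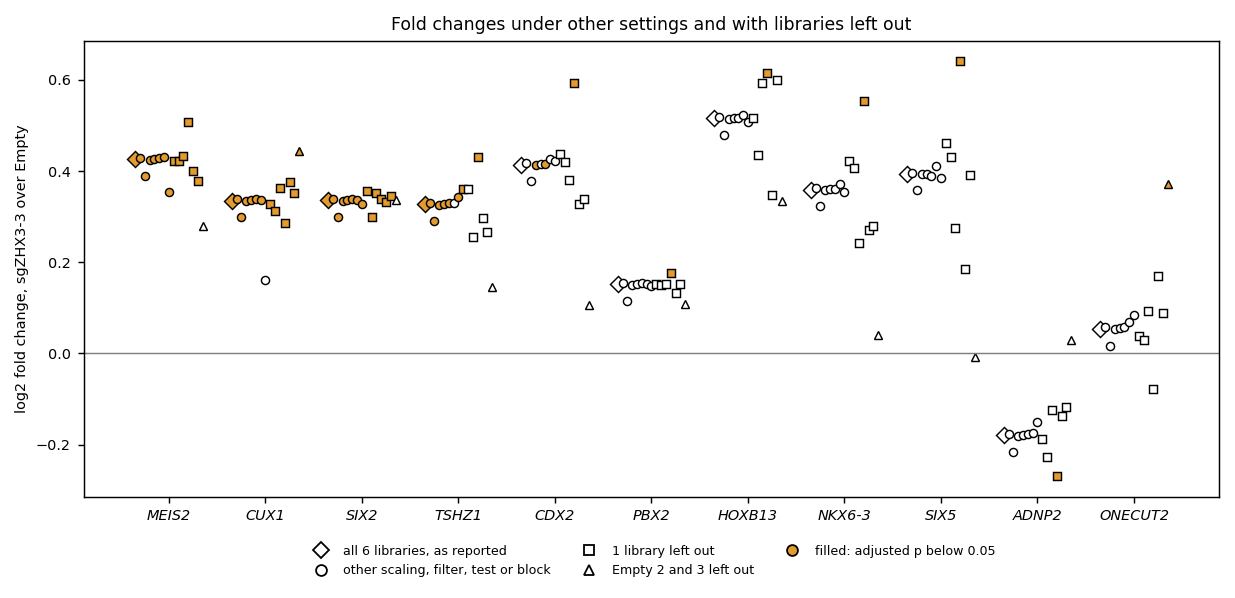
Log2 fold change (y axis, libraries labelled sgZHX3-3 over libraries labelled Empty) of 11 homeobox genes as reported (diamonds), under another scaling, filter, test, block or gene span offset (circles), with 1 library left out (squares) and with Empty 2 and 3 left out (triangles); filled symbols passed an adjusted p of 0.05. MEIS2 and SIX2 are filled in every symbol except the triangle, CUX1 in all but the circle for the gene span offset, and CDX2, NKX6-3, SIX5, ADNP2 and ONECUT2 change most with the Empty libraries used.

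The number of called members followed the choice of libraries. Without Empty 1, 9 members were higher and 1 lower, when 20.1% of all tested genes were called. The added genes were CDX2, HOXB13, NKX6-3, PBX2, SIX5 and, among the lower, ADNP2. With Empty 2 and 3 both left out 2 members were called, CUX1 and ONECUT2, beside 1.5% of all tested genes, with the single remaining Empty library taken to spread as the sgZHX3-3 ones do. MEIS2 and SIX2 kept their sign in every setting and library subset tried, as did CUX1 and TSHZ1. Members that were not called, among them PBX2, HOXB13, TGIF1 and NKX6-3, kept theirs too, so this does not set the called genes apart.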

How the data were processed

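Total RNA of 6 EndoC-βH1 cultures was made into strand-specific libraries (NEBNext Ultra Directional), per the labels' protocols. The submitters' processing notes name STAR, featureCounts and hg38. Versions, annotation, strand setting and the handling of reads with several matches: not given in the sources used here. Per the file headers, the authors deposited whole-number counts by symbol, with 45101454 to 61051884 per library. Each column was assigned through its control or knockout name and its letter, which left 0 columns unassigned.

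From the deposited counts, genes were kept by filterByExpr (minimum count 10, minimum total 15), which left 16199, and compared with edgeR 4.0.16 in R 4.3.3: TMM scaling (factors 0.984 to 1.02), a robust quasi-likelihood test of group without covariates, and Benjamini-Hochberg adjustment. The standard error is the fold change over the root of F. Common biological variation was 6.91%. Symbols were matched to GENCODE release 29 (24607 of 26485, older names through RefSeq; all 85 members) for span, exon length and overlaps. Promoter windows are those of RefSeq on GRCh38.p14. The procedure was tested on simulated counts.

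The members and gene lists were chosen with earlier results of these data known. By the naming rule, full statistics were given for members that were called, for those with separate groups and a log2 fold change of at least 0.3, and for the 12 highest per length; up to 8 called genes of the other homeobox list and 5 of the partner and Polycomb lists were named. Values of some genes these rules name are not reported here. Fold changes are not given for members within 1 standard error of 0 outside the 12. Alternatives were scaling by RLE or by library totals, no filter, at least 1 CPM in 3 libraries, DESeq2 1.42.0, the replicate number as a block, a gene span offset, each library left out, and Empty 2 and 3 left out together.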

Additional observations from a re-analysis of the deposited data

How the results depend on the processing

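With 45101454 to 61051884 counts per library, 40 of the 85 homeobox genes were too low to test and 3 replicates per group limit what can be called. Of 29 members followed over the settings, 367 of 397 values kept their sign and their side of the threshold, 9 lost a call, 9 gained one and 12 changed sign; the cause was not tested. Leaving out 1 library gave 3 to 9 higher and 0 to 1 lower members, 0 to 1 higher HOX genes, 474 to 1792 higher and 184 to 1499 lower genes among all tested, 5 to 19 higher genes of the other homeobox list, 2 to 12 higher and 0 to 1 lower partner genes, 0 to 4 higher and 0 to 5 lower Polycomb and Trithorax genes, and a median of the members from 0.0551 to 0.12. It moved ONECUT2 between −0.0773 and 0.171, MSX1 between −0.0700 and 0.0339 and PKNOX1 between −0.00581 and 0.0278.

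Leaving out both Empty 2 and Empty 3 gave 2 higher members, 209 higher and 40 lower genes among all tested, 2 higher and 1 lower of the other homeobox list, 1 higher and 0 lower partner genes, and 1 higher and 0 lower Polycomb and Trithorax genes. In that setting ADNP2 (0.0304), SIX5 (−0.00806), SIX4 (0.0749), HOXD4 (0.136), SIX3 (−0.0378) and ZEB1 (0.0711) changed sign. With library totals only 1272 genes were lower, 1 Polycomb or Trithorax gene was higher, the members' median was 0.0364, that of all genes −0.0384, and PKNOX1 was at −0.0257. With a filter of 1 CPM in 3 libraries the members' median was 0.0452. Without a filter, and with the gene span offset, 1 Polycomb or Trithorax gene was lower.

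Samples that share a replicate number correlated at −0.138, 0.0685 and −0.142 in their deviations from the group means. With 3 libraries per group these values cannot show whether samples that share a number were handled together. With the replicate block 516 genes were higher and 239 lower, with 3 members called (CUX1, MEIS2 and SIX2; TSHZ1 at adjusted p = 0.0738), 6 higher genes of the other homeobox list, 3 higher and 0 lower partner genes, and 0 higher and 0 lower Polycomb and Trithorax genes. No library correlated best with the library of its own number in the other group.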
